A study of Homo sapiens with 6 samples.

Results

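The genes described here supply the cell with amino acids and attach them to tRNA. There are 43 of them, chosen by name, among 41471 gene symbols in the knockdown experiment and 34157 in the Reb experiment. They fall into 4 groups by role: 20 cytosolic aminoacyl-tRNA synthetase genes, 8 genes of serine synthesis and the folate-bound carbon cycle, 8 genes of other amino acid enzymes and 7 amino acid transporter genes. The rule used their names and no expression value, but the members were chosen with earlier results of these data known. All 43 had a row in both tables, and 42 reached a mean of 1 CPM (counts scaled to the library's size) in each experiment and were tested. The exception was CBS, the enzyme that makes cystathionine, with 0, 1 and 0 counts in the knockdown libraries and 0, 0 and 8 in the Reb libraries. CBS has a near-identical copy, CBSL, whose counts were as low, so reads of the pair may be split and no fold change is given.

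The cells were MDA-MB-231, a human line of triple-negative breast cancer, and their messenger RNA was sequenced in 2 experiments of 3 libraries. In the knockdown experiment the cells carried a scramble shRNA (SC) or 1 of 2 shRNAs against the kinase CDK16 (CDK16-sh1 and CDK16-sh2), delivered by lentivirus, and were kept as stable lines sorted by their GFP tag. In the Reb experiment MDA-MB-231 cells received DMSO, 1 μM or 5 μM of the kinase inhibitor rebastinib (Reb) for 48 h. Each condition had 1 library, so no difference below has a replicate check, and fewer cells of a kind and less RNA per cell cannot be told apart. VIM, CD44, CAV1 and AXL, which mark this mesenchymal-like line, stood at 26.7 to 649 RPKM in the SC and DMSO libraries, where RPKM are the authors' reads per kilobase of gene, scaled to the library's total. ESR1, PGR and CDH1 were at or under 0.05 RPKM there, and ERBB2 was at 5.06 in SC and 6.54 in DMSO.

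Aminoacyl-tRNA synthetases join each amino acid to its tRNA before translation. Cells import essential amino acids through membrane transporters and make others, such as serine, asparagine and proline, from sugars and other amino acids. When an amino acid runs short, uncharged tRNA activates the kinase GCN2 (EIF2AK4), which phosphorylates the initiation factor eIF2α. General translation then slows while ATF4 is made. ATF4 pairs with C/EBP proteins and is known to activate many synthetase, serine synthesis and transporter genes, together called the amino acid arm of the integrated stress response. It binds a short DNA element, the C/EBP-ATF response element (CARE), often written TGATGNAA.

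To show where these letters stand, the windows from 250 bases before to 50 bases after the RefSeq start (GRCh38.p14) were searched on both strands. A window was found for 35 of the 43 genes, and 13 of these have more than 1 start and so more than 1 window. The genes without one here were DARS, GPT2, LARS, PSPH, PYCR1, SHMT2, VARS and YARS. The letters TGATGNAA occurred in 15 of the 35 genes (42.9%) and in 1217 of the 27305 genes with a window (4.46%), counting a gene if any of its windows held them. Counted by window, they occurred in 17 of 53 (32.1%) and in 1270 of 35116 (3.62%). By role, they occurred in 7 of 16 synthetase genes, 1 of 6 serine and folate-cycle genes, 2 of 6 other enzyme genes and 5 of 7 transporter genes. A second motif, the E-box CACGTG, the site of MYC and related factors, occurred in 7 of the 35 (20%) and in 8.77% of all genes. It did not overlap the first in any of the 3 genes that held both. A match is a description of the letters and not a binding site. Shown are the 28 bases around the match in the 10 genes that differed at least 2-fold at 5 μM Reb, with the match in capitals, read on the strand of the gene.
ASNS: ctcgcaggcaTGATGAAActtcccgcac
GARS: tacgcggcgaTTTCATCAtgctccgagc
NARS: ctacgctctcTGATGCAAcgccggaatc
TARS: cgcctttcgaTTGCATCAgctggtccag
SLC3A2: aatgtgcaggactccTTACATCAgctcc
SLC38A1: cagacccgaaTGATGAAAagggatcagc
AARS: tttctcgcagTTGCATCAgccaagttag
MARS: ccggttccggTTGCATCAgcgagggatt
SLC1A4: cggctcccgtTTGCATCAtctccagccg
SLC1A5: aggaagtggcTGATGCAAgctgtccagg
The first 6 genes were higher at 5 μM and the last 4 lower. The ASNS window lies at chr7:97872459-97872486, on the minus strand, with its match starting 68 bases before the RefSeq start at 97872408, which lies inside the gene as the deposited tables give it. That of SLC3A2 lies at chr11:62881721-62881748, on the plus strand, with its match 38 bases after the RefSeq start at 62881699, 1 of several starts of this gene and also inside it. The starts used for the others shown lie inside the deposited gene too. That of MARS is at 57488068 in a gene that begins at 57475445. That of SLC1A5 is at 46784814 in a minus-strand gene that begins at 46788594. TARS (chr5:33440957-33440984), MARS (chr12:57488054-57488081) and AARS (chr16:70289676-70289703) carry the same 8 letters, TTGCATCA. So do SLC1A4 and, not shown, CARS, IARS and GOT1, and NARS, SLC1A5 and MTHFD1L carry them on the other strand. AARS, MARS and SLC1A4 were lower where TARS was higher, and CARS, IARS and GOT1 were within 2-fold.

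Total counts ranged from 25838443 to 50303269. Log2 fold changes against the experiment's own control were computed from CPM scaled by the TMM method with a prior count of 2, over 15295 genes in the knockdown and 15655 in the Reb experiment. A gene was called higher or lower at a fold change of at least 2. Intervals are 95% Clopper-Pearson intervals and cover counting error only. CDK16 itself had 3223, 1360 and 846 counts in SC, CDK16-sh1 and CDK16-sh2, a log2 fold change of −1.52 and −1.82. The 5 μM library stood apart. Mitochondrial transcripts took 16.4% of its counts against 7.19% with DMSO, and the 100 most abundant genes 35.3% against 24.3%. In CDK16-sh2 the mitochondrial share was 16.2% against 11.3% in SC. Scaling by library totals in place of TMM moved the median of all genes by −0.69 at 5 μM and by −0.20 in CDK16-sh2, and the part of the mitochondrial share in this was not tested. Under TMM a gene at the same scaled level has 2.16 times fewer counts at 5 μM than with DMSO, and by library totals 1.34 times fewer.

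In the control libraries the 42 tested genes were well expressed, with a median of 18.6 RPKM in SC and 16.5 in DMSO. The medians of all genes tested in the same experiment were 4.56 and 3.99. Their counts ran from 119 (ASS1) to 16826 (SLC7A5) in SC and from 144 (ASS1) to 19543 (SARS) in DMSO. At 5 μM the lowest count was 56, again of ASS1.

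With the hairpins few of these genes differed from SC by 2-fold. In CDK16-sh1, 0 genes were higher and 1, PSAT1, was lower, where 4.33% of all genes tested were higher and 6.86% lower. In CDK16-sh2, 0 were higher and 4 were lower (PSAT1, MTHFD1, SLC7A5 and SLC1A4), where 2.2% and 7.62% of all genes were. Over the 42 genes the median log2 fold change came to 0.10 (CDK16-sh1) and −0.04 (CDK16-sh2), against −0.00 and 0.02 for all genes. Reb at 1 μM gave 1 higher gene, PHGDH, and 0 lower, where 1.28% and 1.92% of all genes were called. Its differences were small but mostly of 1 sign, with 32 of the 42 genes above DMSO, where 50.2% of all genes were, and a median of 0.17 against 0.00. At 5 μM 10 genes were higher and 10 lower, in shares near those of all genes (23.6% higher and 27.2% lower), so the number is no feature of these genes. Of the 10 higher calls, only PHGDH and ASNS held under library totals and only ASNS with the authors' RPKM, while all 10 lower calls held under both. Which of them were higher and which lower is given by role below.

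**Figure D1:**
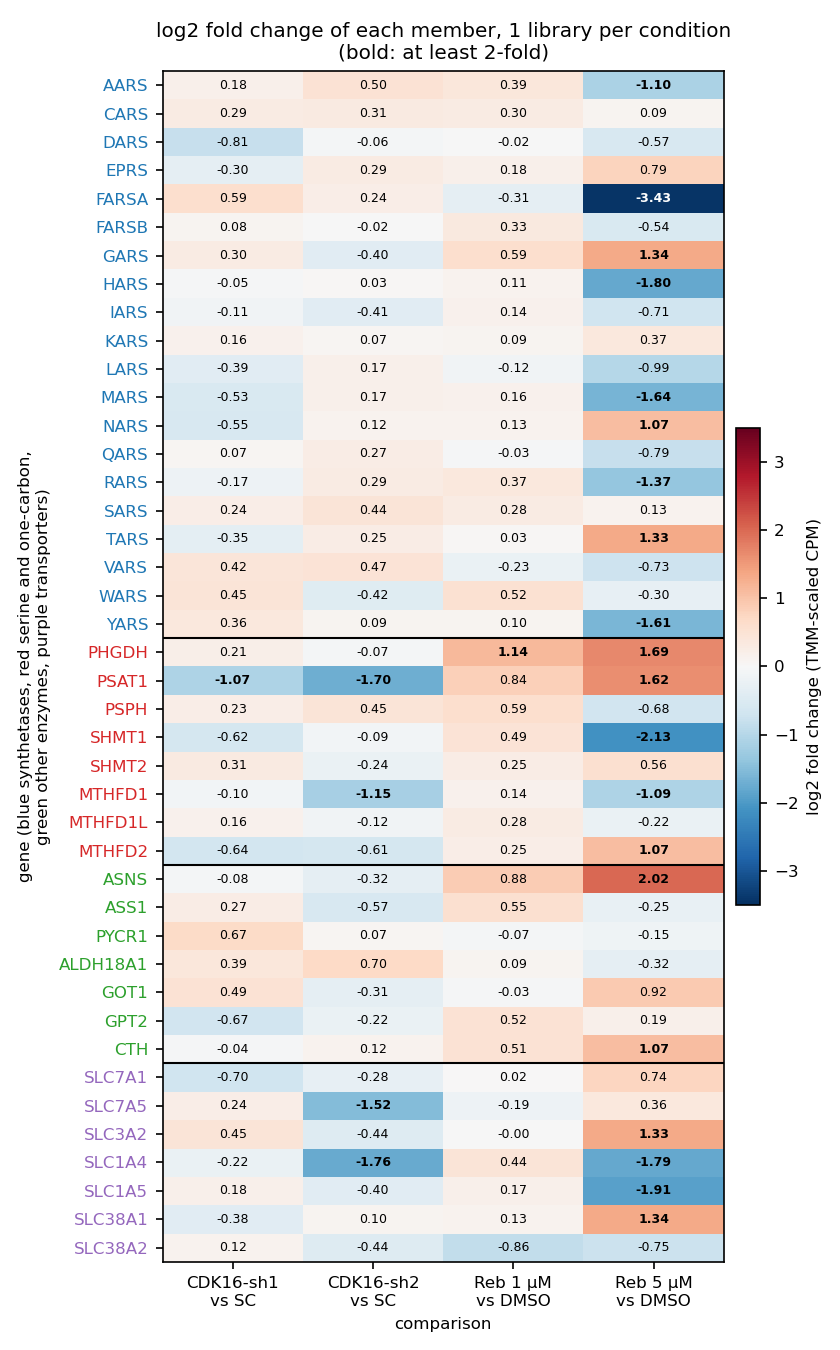
Heat map of the log2 fold change (colour and printed value) of the 42 tested genes, in rows grouped by role, in the 4 comparisons of a treated library with its control, in columns. Bold values are at least 2-fold: 1 in CDK16-sh1, 4 in CDK16-sh2, 1 at 1 μM Reb and 20 at 5 μM Reb, from −3.43 (FARSA) to 2.02 (ASNS).

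The 20 synthetase genes showed no 2-fold difference with either hairpin or at 1 μM Reb. Their log2 fold changes ran from −0.81 (DARS) to 0.59 (FARSA) in CDK16-sh1, from −0.42 (WARS) to 0.50 (AARS) in CDK16-sh2 and from −0.31 (FARSA) to 0.59 (GARS) at 1 μM, where 15 of 20 lay above DMSO. At 5 μM GARS, NARS and TARS were higher and AARS, FARSA, HARS, MARS, RARS and YARS lower, and 13 of 20 lay below DMSO. The median was −0.64, against −0.07 for all genes. Under library totals these medians were −1.33 and −0.75, and GARS (0.65), NARS (0.38) and TARS (0.64) were no longer 2-fold higher. Nor were they with the trend on expression and length removed, and with the GC trend removed NARS (0.90) and AARS (−0.80) were within 2-fold.

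TARS, which charges threonine tRNA, had 9883, 9383 and 10939 counts in SC, CDK16-sh1 and CDK16-sh2, and 15242, 15791 and 17782 with DMSO, 1 μM and 5 μM Reb. GARS, the glycine enzyme of both cytosol and mitochondria, had 5557, 8267 and 3907 counts in the knockdown libraries and 11689, 17942 and 13698 in the Reb libraries. For NARS, the asparagine enzyme, the counts were 4214, 3491 and 4253, and 11349, 12581 and 11049. At 5 μM each of the 3 kept roughly its DMSO count or exceeded it in a library with fewer counts. Under TMM TARS was 2.51-fold higher there, a log2 fold change of 1.33 (interval 1.30 to 1.36), although it was at 0.03 at 1 μM. GARS was the only one of them above DMSO by over 0.5 at both doses, at 0.59 (interval 0.56 to 0.63) and 1.34 (interval 1.30 to 1.37). NARS came to 0.13 and 1.07 (interval 1.03 to 1.11).

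FARSA differed most of all 42 genes. It encodes the catalytic subunit of phenylalanyl-tRNA synthetase and lies on chr19:12922479-12934037, minus strand. It had 8615, 15746 and 9474 counts in SC, CDK16-sh1 and CDK16-sh2, and 16197, 13309 and 698 with DMSO, 1 μM and 5 μM Reb. It was the most abundant of these genes in DMSO, at 132 RPKM, and the 5 μM library alone was low, 10.7-fold below DMSO (log2 fold change −3.43, interval −3.54 to −3.32). FARSB, the partner subunit of the same enzyme, had 1140, 1462 and 363 counts in the Reb libraries, a log2 fold change of −0.54 at 5 μM. The ratio of FARSA to FARSB in RPKM, which no scaling of the libraries can change, came to 19.7 in the DMSO library, 12.6 at 1 μM and 2.66 at 5 μM, and to 9.94 to 14.2 in the knockdown libraries.

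The other 5 lower synthetases were close to DMSO or above it at 1 μM and low at 5 μM. HARS, the histidine enzyme, had 4849, 5689 and 4611 counts in the knockdown libraries and 7729, 8478 and 1028 in the Reb libraries, with −1.80 (interval −1.90 to −1.71) at 5 μM. For MARS, the methionine enzyme, the counts were 2706, 2275 and 2832, and 4955, 5619 and 739, with −1.64 (interval −1.75 to −1.53). YARS, the tyrosine enzyme, gave 3273, 5083 and 3239, and 6070, 6617 and 921 counts, with −1.61 (interval −1.71 to −1.51). With the hairpins the 3 genes lay between −0.53 and 0.36, and at 5 μM they were 3.05- to 3.48-fold below DMSO.
RARS, the arginine enzyme, had 2223, 2392 and 2523 counts in SC, CDK16-sh1 and CDK16-sh2, and 3586, 4704 and 645 with DMSO, 1 μM and 5 μM, with −1.37 (interval −1.49 to −1.25). AARS, the alanine enzyme, had 4480, 6134 and 5885, and 10791, 14393 and 2333 counts, with 0.39 at 1 μM and −1.10 (interval −1.17 to −1.04) at 5 μM. Both were higher than DMSO at the low dose and lower at the high one.

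SARS, the serine enzyme and the second most abundant of the group, had 8400, 11997 and 10591 counts in the knockdown libraries and 19543, 24085 and 9908 in the Reb libraries. Its log2 fold change was 0.28 at 1 μM and 0.13 at 5 μM. The other 10 members that stayed within 2-fold at 5 μM ran from −0.99 (LARS, leucine) to 0.79 (EPRS, the fused glutamate and proline enzyme). A split of the synthetases by structural class and by complex was chosen after the values had been seen and gets no test. All 3 higher genes belong to class II, but so do 3 of the lower ones, AARS, FARSA and HARS. The other lower genes, MARS, RARS and YARS, belong to class I. The lower share was thus alike, at 30% of class II and 33.3% of class I, where 27.2% of all genes were lower. Of the 10 class II genes 5 lay above DMSO at 5 μM, and 8 of the 9 class I genes lay below it, where 51.7% of all genes did. Of the 8 synthetases that assemble into the multisynthetase complex, 0 were higher and 2 (MARS and RARS) lower, where 23.6% and 27.2% of all genes were.

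**Figure D2:**
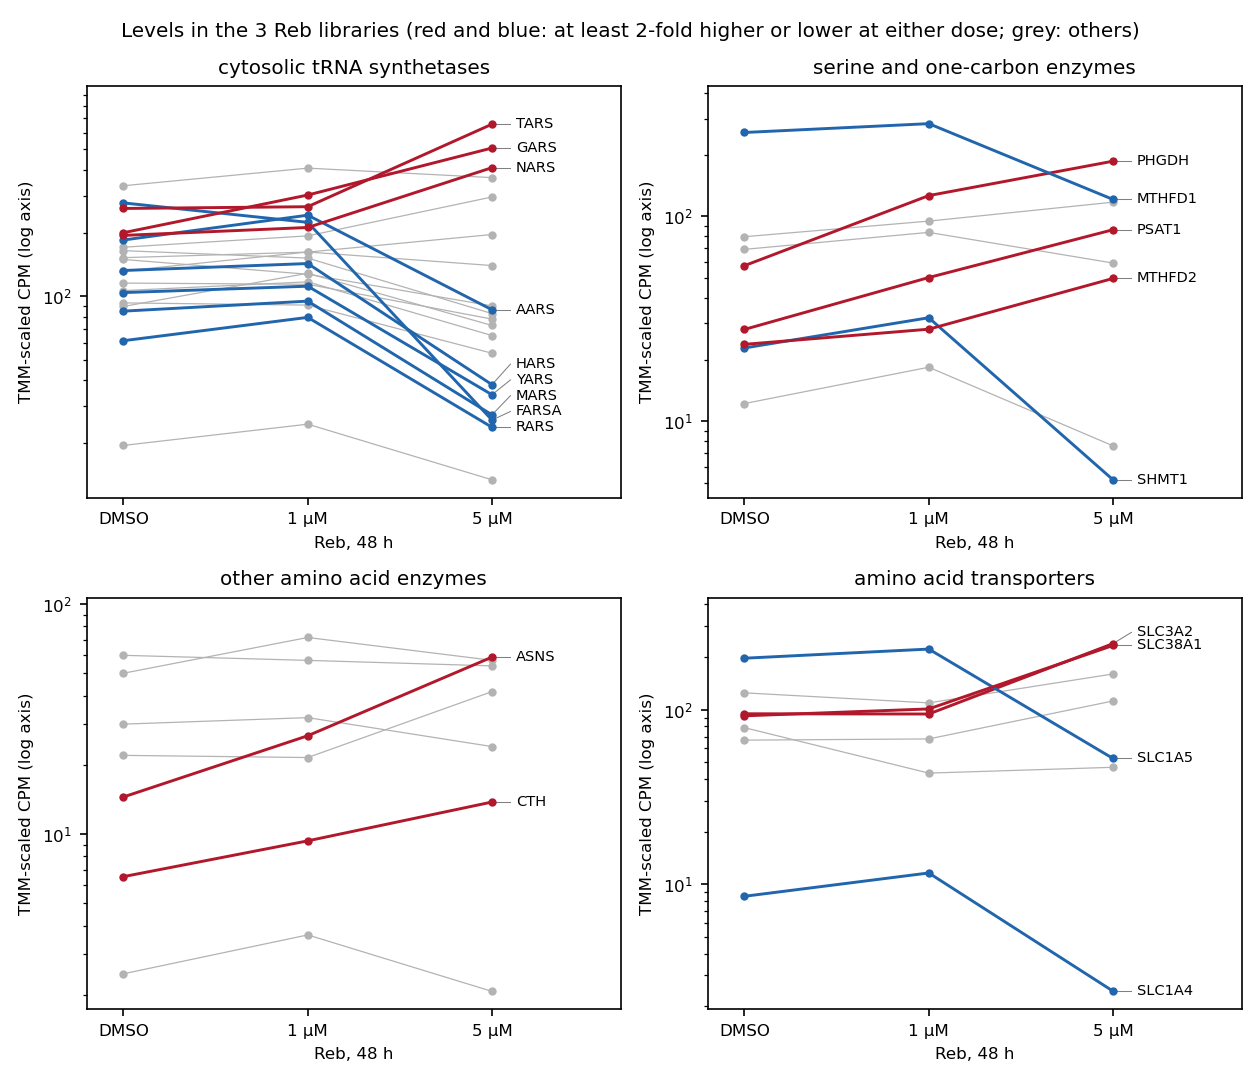
TMM-scaled CPM (log axis) of the tested genes in the DMSO, 1 μM and 5 μM Reb libraries, 1 line per gene and 1 panel per role, with 1 library per dose. Red and blue lines are genes at least 2-fold higher (10) or lower (10) than DMSO, and most of the blue lines keep level or go up at 1 μM before they drop at 5 μM.

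Of the 8 serine and folate-cycle genes, all lay above DMSO at 1 μM Reb, from 0.14 (MTHFD1) to 1.14 (PHGDH), with a median of 0.38. At 5 μM PHGDH, PSAT1 and MTHFD2 were higher and SHMT1 and MTHFD1 lower. MTHFD2 was within 2-fold with the GC trend removed (0.82). PHGDH, which oxidises 3-phosphoglycerate to enter the pathway, lies on chr1:119659798-119744215, plus strand. It had 1423, 1990 and 1257 counts in SC, CDK16-sh1 and CDK16-sh2, and 3350, 7483 and 5028 with DMSO, 1 μM and 5 μM Reb. It was 2.2-fold higher at 1 μM (log2 fold change 1.14, interval 1.08 to 1.20) and 3.23-fold at 5 μM (1.69, interval 1.63 to 1.76). With the hairpins PHGDH was at 0.21 and −0.07.

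PSAT1, the transaminase that follows PHGDH, lies on chr9:78297143-78330093, plus strand, and was the only member past 2-fold with both hairpins. It had 1334 counts in SC, 767 in CDK16-sh1 and 381 in CDK16-sh2, so both hairpin libraries were low. Its log2 fold changes were −1.07 (interval −1.21 to −0.95) and −1.70 (interval −1.87 to −1.54). With Reb it went the other way, with 1636, 2979 and 2327 counts in DMSO, 1 μM and 5 μM. These gave 0.84 (interval 0.75 to 0.93) and 1.62 (interval 1.52 to 1.71). The call in CDK16-sh1 was lost when the trend of fold change with GC content was removed. PSPH, the last enzyme of serine synthesis, was at 0.23 and 0.45 with the hairpins, 0.59 at 1 μM and −0.68 at 5 μM.

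SHMT1 and MTHFD1, the folate-cycle genes lower at 5 μM, encode cytosolic enzymes. SHMT1, which splits serine into glycine in the cytosol, had 692, 544 and 604 counts in the knockdown libraries and 1328, 1896 and 140 in the Reb libraries, with 0.49 at 1 μM and −2.13 (interval −2.40 to −1.89) at 5 μM. SHMT2, its mitochondrial counterpart, had 3335, 5022 and 2621, and 4638, 5617 and 3172 counts, with 0.25 and 0.56. The ratio of SHMT1 to SHMT2 in RPKM came to 0.19 in the DMSO library, 0.224 at 1 μM and 0.0293 at 5 μM.
MTHFD1, the cytosolic enzyme with 3 folate activities, had 5262, 5940 and 2200 counts in SC, CDK16-sh1 and CDK16-sh2, and 14967, 16800 and 3271 with DMSO, 1 μM and 5 μM. It was low in CDK16-sh2 (−1.15, interval −1.22 to −1.08) and at 5 μM (−1.09, interval −1.14 to −1.03), and at −0.10 in CDK16-sh1. MTHFD2, a mitochondrial enzyme of the same cycle, had 770, 598 and 469, and 1383, 1667 and 1346 counts. Its log2 fold changes were −0.64 and −0.61 with the hairpins, 0.25 at 1 μM and 1.07 (interval 0.96 to 1.18) at 5 μM. In RPKM, MTHFD1 stood 5.62 times above MTHFD2 in the DMSO library, 5.23 times at 1 μM and 1.26 times at 5 μM. MTHFD1L, which completes the mitochondrial branch, stayed between −0.22 and 0.28 in all 4 comparisons.

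The other amino acid enzymes held the highest gene of the set at 5 μM. ASNS, which makes asparagine, lies on chr7:97852118-97872542, minus strand. It had 491, 563 and 366 counts in SC, CDK16-sh1 and CDK16-sh2, and 846, 1587 and 1592 with DMSO, 1 μM and 5 μM Reb. In scaled CPM that is 14.5, 26.8 and 58.8 over the Reb libraries, a step up at each dose. The log2 fold changes were 0.88 (interval 0.76 to 1.01) at 1 μM and 2.02 (interval 1.90 to 2.14, 4.05-fold) at 5 μM, against −0.08 and −0.32 with the hairpins.
CTH, which releases cysteine from cystathionine, had 146, 172 and 148 counts in the knockdown libraries and 381, 554 and 373 in the Reb libraries, with 0.51 at 1 μM and 1.07 (interval 0.87 to 1.29) at 5 μM, or 0.88 with the GC trend removed. The 3 most abundant genes of the group were PYCR1, GOT1 and ALDH18A1. PYCR1, the last step of proline synthesis, had 1296, 2495 and 1261, and 3494, 3376 and 1458 counts, and none of its log2 fold changes passed 0.67. GOT1, the cytosolic aspartate transaminase, had 1243, 2121 and 933, and 1283, 1276 and 1127 counts, with 0.92 (interval 0.80 to 1.04) at 5 μM, the nearest to the 2-fold line from below. ALDH18A1, the first step of proline synthesis, had 1017, 1616 and 1532, and 1754, 1903 and 650 counts, with 0.70 in CDK16-sh2 and −0.32 at 5 μM. GPT2, a mitochondrial alanine transaminase, lay between −0.67 and 0.52 and ASS1, which makes argininosuccinate and has many pseudogene copies, between −0.57 and 0.55. At 5 μM 2 of the 7 tested genes of the group were higher and 0 lower. That is 28.6% and 0%, where 23.6% and 27.2% of all genes were. Under library totals CTH was within 2-fold.

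Of the 7 transporters, SLC7A5 and SLC1A4 were lower in CDK16-sh2. SLC7A5 (LAT1) imports leucine and other large neutral amino acids and lies on chr16:87830023-87869488, minus strand. It had 16826 counts in SC, 24125 in CDK16-sh1 and 5464 in CDK16-sh2. Only CDK16-sh2 was low, with a log2 fold change of −1.52 (interval −1.56 to −1.47) against 0.24 in CDK16-sh1. With DMSO, 1 μM and 5 μM Reb it had 7265, 6471 and 4324 counts, that is −0.19 and 0.36.
SLC3A2 (CD98), the heavy chain that carries SLC7A5 to the membrane, lies on chr11:62856102-62888875, plus strand. It had 12259, 20343 and 8405 counts in the knockdown libraries, with 0.45 and −0.44. In the Reb libraries it had 5514, 5587 and 6451 counts, level at 1 μM and 2.52-fold higher at 5 μM (1.33, interval 1.28 to 1.39). The ratio of SLC7A5 to SLC3A2 in RPKM was 1.26 to 1.498 in SC, CDK16-sh1, DMSO and 1 μM Reb, and 0.709 in CDK16-sh2 and 0.731 at 5 μM. In both of these libraries the light chain was thus under the heavy chain per length. At 5 μM the scaling decides which chain moved, since under library totals SLC3A2 was at 0.64 and SLC7A5 at −0.33.

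The other called transporters carry small neutral amino acids. SLC1A4 (ASCT1), an exchanger of alanine, serine and cysteine, had 242, 251 and 65 counts in SC, CDK16-sh1 and CDK16-sh2, and 497, 687 and 66 with DMSO, 1 μM and 5 μM. It was low in CDK16-sh2 (−1.76, interval −2.21 to −1.39) and at 5 μM (−1.79, interval −2.20 to −1.43). SLC1A5 (ASCT2), a glutamine exchanger, had 7609, 10416 and 5342, and 11472, 13154 and 1419 counts, with −0.40 in CDK16-sh2, 0.17 at 1 μM and −1.91 (interval −1.99 to −1.83) at 5 μM. SLC38A1 (SNAT1), a sodium-coupled importer of glutamine, had 2470, 2294 and 2454, and 5367, 5974 and 6296 counts, with 0.13 at 1 μM and 1.34 (interval 1.29 to 1.39) at 5 μM. Under library totals and with the authors' RPKM, SLC1A4 and SLC1A5 stayed at least 2-fold lower at 5 μM, while SLC38A1 was within 2-fold. SLC38A2 (SNAT2), of the same family, was the lowest member at 1 μM, at −0.86, and was at −0.75 at 5 μM. SLC7A1, which imports arginine and lysine, was at −0.70 in CDK16-sh1 and 0.74 at 5 μM.

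**Figure D3:**
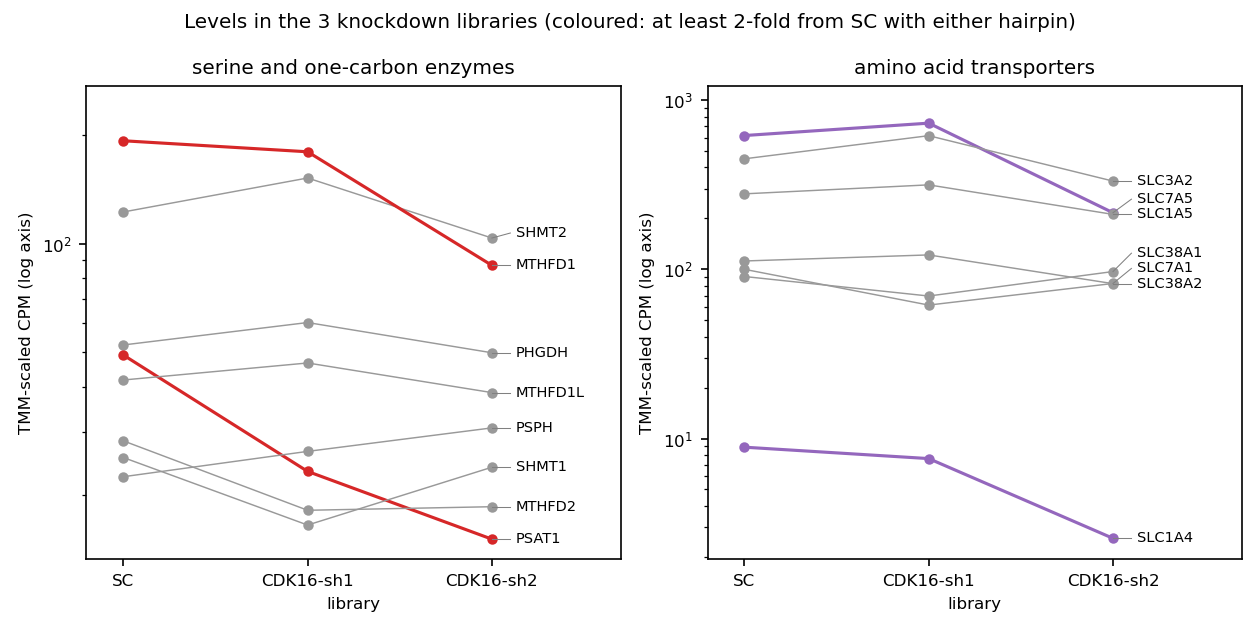
TMM-scaled CPM (log axis) of the 8 serine and folate-cycle genes (left) and the 7 transporters (right) in the SC, CDK16-sh1 and CDK16-sh2 libraries, 1 library each. Coloured lines mark genes at least 2-fold below SC with either hairpin. PSAT1 is low with both hairpins, while MTHFD1, SLC7A5 and SLC1A4 are low in CDK16-sh2 only.

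The hairpins were also compared with each other. MTHFD1 (−1.05), SLC7A5 (−1.76) and SLC1A4 (−1.54) were at least 2-fold lower in CDK16-sh2 than in CDK16-sh1, and 0 members were higher, where 8.68% and 6.53% of all genes were. PSAT1 differed by −0.62 (interval −0.81 to −0.45). Between the doses, TARS, ASNS, SLC3A2 and SLC38A1 were higher at 5 μM than at 1 μM and 11 members were lower, where 22.8% and 25.8% of all genes were. These 11 were the 10 genes lower than DMSO and PSPH (−1.27).

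The controls of the 2 experiments differed for a pair of transporters. SLC7A5 was at 137 RPKM in SC and 30.4 in DMSO, and SLC3A2 at 91.6 and 21.2. These ratios, 4.51 and 4.33, were the only ones of at least 4 among the 42 members. Of the 14412 genes tested in both experiments with a defined ratio, 1.68% reached 4. The median ratio of the members was 1.06. The tables were normalized separately, and the cell lines, the virus and the run cannot be told apart here.

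**Figure D4:**
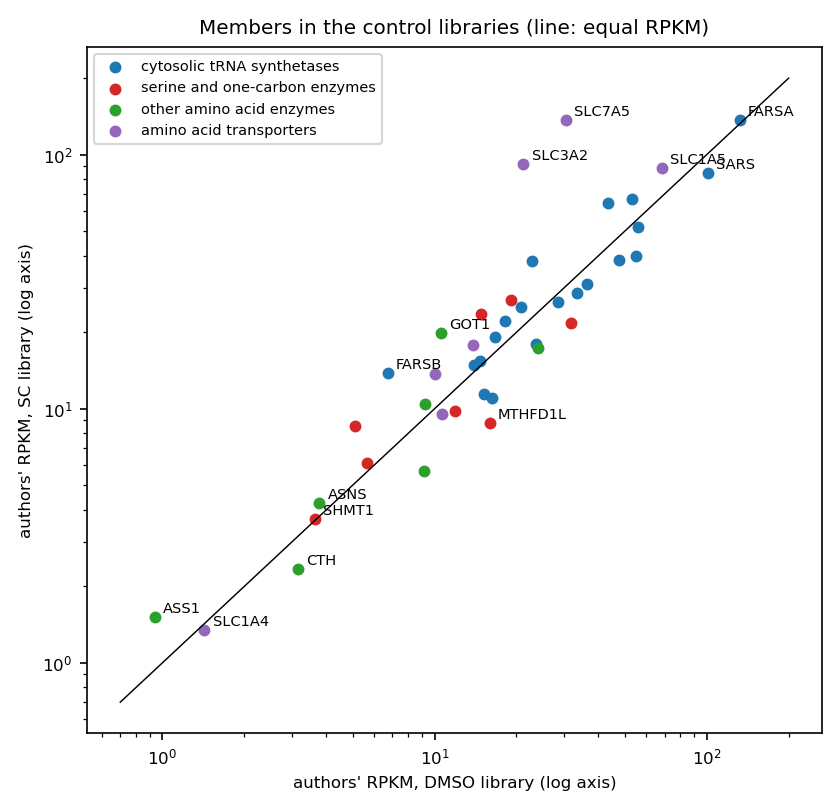
Authors' RPKM of the 42 tested genes in the DMSO library (x, log axis) and the SC library (y, log axis), coloured by role, with a line of equal RPKM. SLC7A5 and SLC3A2 stand at 4.51 and 4.33 times their DMSO level in SC, and the other genes at 0.55 to 2.05 times.

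For a test across genes the pair of treated libraries was set as a group against its control, which makes the gap between hairpins or doses the spread. In the knockdown experiment edgeR's quasi-likelihood test called 0 of 15295 genes (0%) and 0 members at an adjusted p of at most 0.05 and a 2-fold change. At an unadjusted p under 0.05 there were 382 genes, among them 1 member, PSAT1 (edgeR, unadjusted p = 0.0098, adjusted p = 1.00). DESeq2 called 0 genes, with 228 under 0.05. In the Reb experiment edgeR called 12 of 15655 genes (0.0767%) and 0 members, with 228 genes and 0 members at an unadjusted p under 0.05, and DESeq2 called 18 genes and 0 members. A linear term of log2(dose in μM + 1), in place of the groups, called 24.5% of all genes (13.3% higher and 11.1% lower). It called 7 of the 42 members, 2 higher and 5 lower. ASNS (edgeR, adjusted p = 0.00896) and PSAT1 (0.0426) were higher. FARSA (edgeR, adjusted p = 0.00078), SHMT1 (0.0219), SLC1A5 (0.0332), HARS (0.0363) and MARS (0.0488) were lower. That fit has 3 libraries and lets a line with the log2-scaled dose stand for replication.

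The scaling decides how many members pass 2-fold at 5 μM, since it moves all genes together. With library totals 2 members were higher (PHGDH and ASNS) and 19 lower, and with the authors' RPKM 1 (ASNS) was higher and 18 lower. The order of the genes stays nearly the same. All 20 genes called under TMM kept their sign under both, and CARS, KARS, SARS, SHMT2, GPT2 and SLC7A5, all within 2-fold, turned from above DMSO to below it under library totals. In CDK16-sh2 this change of scaling turned 9 uncalled genes and no called one.

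**Figure D5:**
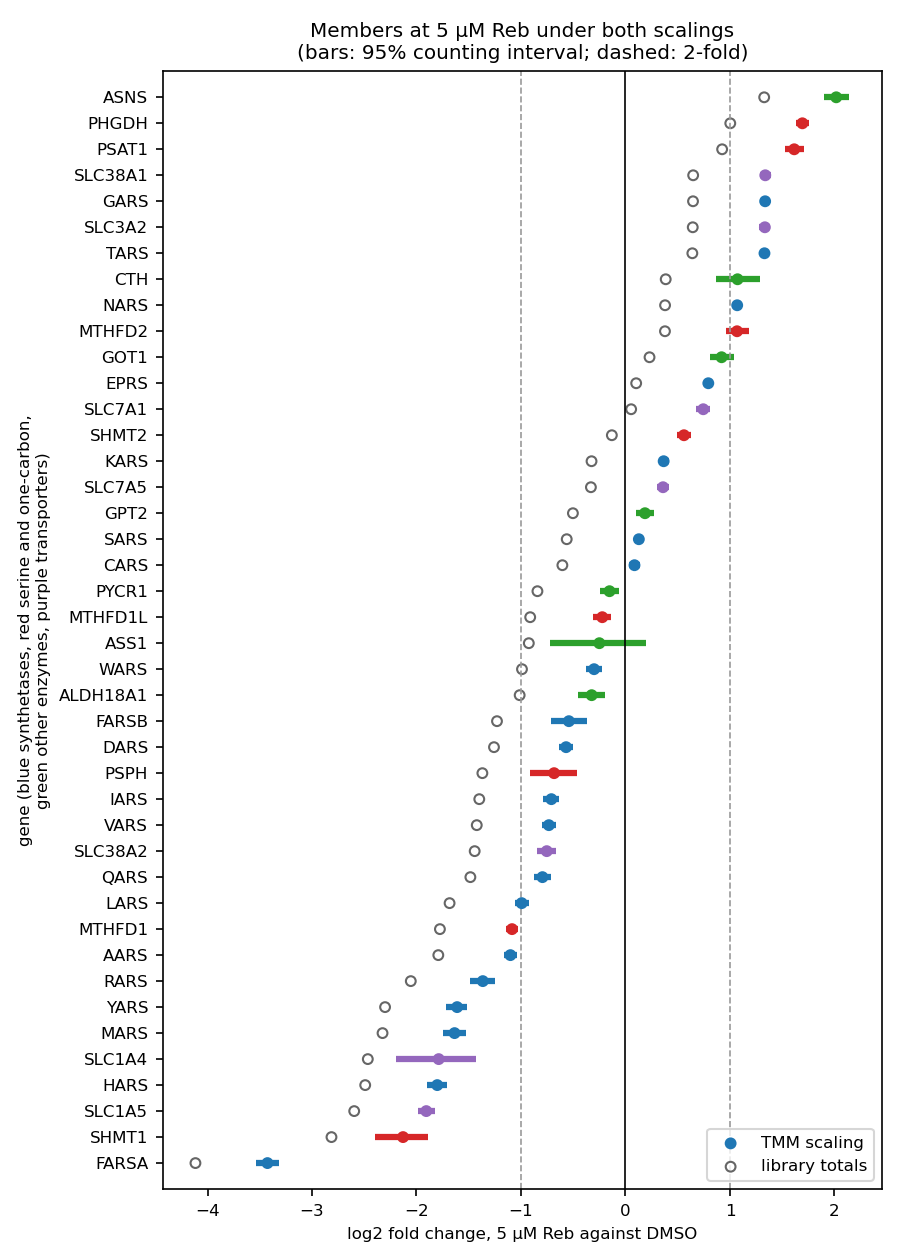
Log2 fold change at 5 μM Reb against DMSO of the 42 tested genes (x), sorted from FARSA (−3.43) to ASNS (2.02), with filled points for TMM scaling, coloured by role, bars for the 95% counting interval and open points for library totals. Dashed lines mark 2-fold, and the open points all lie to the left of the filled ones.

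Genes around the pathway were described from lists written by hand. Of 23 regulators and targets of the integrated stress response other than the 43 genes, all tested with Reb, 1 was higher at 1 μM (NUPR1) and 0 lower. At 5 μM 9 were higher and 3 lower (39.1% and 13.0% of the list, where 23.6% and 27.2% of all genes were), with a median of 0.38 against −0.07 for all genes (under library totals −0.30 against −0.75). ATF4, the central factor, had 14770, 14811 and 14145 counts with DMSO, 1 μM and 5 μM, a log2 fold change of −0.02 and of 1.05 (interval 1.01 to 1.08). Under library totals ATF4 was at 0.36 at 5 μM and no longer 2-fold higher. CEBPG, a C/EBP partner of ATF4, had 1685, 2050 and 13550 counts (4.11 at 5 μM), and ATF3, a related stress factor, had 320, 388 and 2527 (4.08). VLDLR (2.12) and SESN2 (1.82), known ATF4 targets, were higher as well. Other known targets, DDIT3 (0.29), TRIB3 (0.38) and CHAC1 (−0.78), did not pass 2-fold, and under library totals DDIT3 and TRIB3 lay below DMSO. CEBPG (3.42), ATF3 (3.39), VLDLR (1.43) and SESN2 (1.13) stayed past 2-fold under library totals. EIF2AK4, which encodes the sensor GCN2, was lower (−1.29 under TMM and −1.98 under library totals). Of the hairpins, CDK16-sh1 had ATF3 and PPP1R15A higher and EIF2AK3 and SLC7A11 lower out of 21 tested. That is 9.52% higher and 9.52% lower, where 4.33% and 6.86% of all genes were. CDK16-sh2 had PPP1R15A higher and 0 lower, that is 4.76% and 0%, where 2.2% and 7.62% of all genes were. ATF4 was at 0.21 and 0.34 with the hairpins, and its relation to PSAT1 was not tested.

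The 15 genes with the CARE letters were set beside the 19 tested genes that had a window without them, as a description only. At 5 μM 6 of the 15 were higher and 4 lower (40% and 26.7%), with a median of 0.74. Of the 19, 4 were higher and 5 lower (21.1% and 26.3%), with a median of −0.30. Among all genes 23.6% were higher and 27.2% lower, with a median of −0.07. Under library totals the medians were 0.05 and −0.99, against −0.75 for all genes. Of the higher calls, only ASNS with the letters and only PHGDH without them then stayed past 2-fold. PHGDH, PSAT1, MTHFD2 and CTH were higher without these letters in the window searched. At 1 μM the medians were 0.16 and 0.25, against 0.00 for all genes.

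The 17 synthetases that work only in mitochondria had 0 genes higher and 6 lower at 5 μM (0% and 35.3%, where 23.6% and 27.2% of all genes were), with a median of −0.73, close to the −0.64 of the cytosolic genes. AARS2 (−3.61), TARS2 (−2.78) and SARS2 (−2.66) were the lowest. TARS and TARS2 thus lay on opposite sides of DMSO at 5 μM. With the hairpins and at 1 μM 0 of the 17 passed 2-fold. Of 9 genes of the synthetase complex scaffold, tRNA export and delivery to the ribosome, EEF1B2 (1.48) and AIMP1 (1.17) were higher and XPOT (−1.47), which exports tRNA from the nucleus, was lower at 5 μM, and 0 passed 2-fold in the other 3 comparisons. Under library totals EEF1B2 (0.79) and AIMP1 (0.48) were within 2-fold.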

How the data were processed

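Messenger RNA of MDA-MB-231 cells was measured in 6 libraries, 1 per condition. Per the labels, stranded libraries were sequenced on a HiSeq X 10, and the submitters' processing notes name Trimmomatic, featureCounts, Subread 1.5.1 and GRCh38. The aligner and annotation are not given in the sources used here, nor is the strand setting of the counting. The deposited count tables hold whole-number counts per gene symbol, not normalized. The deposited RPKM tables hold RPKM, calculated by the authors from the same counts.

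Members were found by symbol. The members and lists were chosen with earlier results of these data known. Log2 fold changes came from CPM in edgeR 4.0.16 (R 4.3.3), with TMM factors over the genes tested (a mean of 1 CPM or more) and a prior count of 2. Called genes differed at least 2-fold. The pooled test was the quasi-likelihood test of edgeR, adjusted by Benjamini-Hochberg. DESeq2 1.42.0 was an alternative. All members are named, with counts for those past 2-fold in any comparison and for the 3 most abundant of each role. At most 4 genes per context list are named by size of change among those with 5 CPM or more on average, and any others were picked with their values in view. Single values of some genes on these lists are not reported here.

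The depth was 25838443 to 50303269 counts a library. The reads carry no molecular identifiers and may repeat a molecule, so intervals cover counting error only. Coordinates are those of the deposited tables, and promoter windows are from RefSeq (GRCh38.p14). Alternatives were DESeq2 size factors, library totals, the authors' RPKM with 0.1 added, a prior count of 0.5, no filter and a minimum of 5 CPM. Further ones were removal of trends with GC content or with expression and length, a 1.5-fold threshold and a linear term of the log2-scaled dose. TMM over all genes was chosen after seeing the data.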

Additional observations from a re-analysis of the deposited data

How the results depend on the processing

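No paired analysis was possible because each condition had 1 library. All called members kept their sign under each alternative scaling and trend removal. With the GC trend removed, 0 members were lower in CDK16-sh1 and 1 (SLC38A2) was lower at 1 μM Reb. At 1.5-fold, 2 members were higher and 6 lower in CDK16-sh1, 1 was higher and 5 lower in CDK16-sh2, 5 were higher and 1 lower at 1 μM, and 13 were higher and 16 lower at 5 μM. At 5 μM, library totals gave 2 higher, 19 lower and a median of −0.92 against −0.24, and the authors' RPKM gave 1 higher, 18 lower and −0.87, each with the shift of all genes named above. Of the 20 calls at 5 μM, 12 were kept under library totals, 11 with RPKM, 16 with the GC trend removed, and 17 with the expression and length trend removed and with TMM over all genes. In the pooled Reb test, 11 genes were higher and 1 lower. Library totals gave 0 and 0, no filter 3 and 0, TMM over all genes 5 and 1, DESeq2 14 and 4, and the dose term 2088 and 1744, with 7 members called. The cause of these changes was not tested. Counts under 100, of ASS1 and SLC1A4, limit those genes most.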

Other observations

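Further lists of genes around these pathways gave the following values. Of 21 further amino acid enzymes, 19 were tested in each experiment. In CDK16-sh2 ODC1, the first enzyme of polyamine synthesis, was higher (1.16), and TYMS, which makes thymidylate with a folate that MTHFD1 also handles, was lower (−1.07). In CDK16-sh1 TYMS was at −0.45, and MTR, the methionine synthase, was lower (−1.11). At 5 μM Reb 4 were higher and 3 lower, where 23.6% and 27.2% of all genes were, the most different being ODC1 (1.79), MTHFD2L (1.62), MTR (−1.47) and OAT (1.39). Under library totals MTHFD2L (0.93) and OAT (0.70) were within 2-fold. At 1 μM 0 of the 19 passed 2-fold.

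Of 14 further amino acid transporters, 9 were tested with Reb. At 5 μM 1 was higher, SLC7A6 (1.46, or 0.77 under library totals), and 5 were lower, among them SLC6A6 (−1.11) and SLC1A3 (−1.01). That is 11.1% and 55.6%, where 23.6% and 27.2% of all genes were. The median was −1.01 against −0.07 for all genes, or −1.69 against −0.75 under library totals. In CDK16-sh2 SLC6A6, the taurine carrier, was higher (1.01), and 0 of the 10 tested passed 2-fold in CDK16-sh1. Of 19 genes by which mTORC1 senses amino acids, 18 were tested. At 5 μM 4 were higher, among them LAMTOR3 (2.77) and SESN2 (1.82), and 3 lower, among them DEPDC5 (−2.30) and MTOR (−2.09), where 23.6% and 27.2% of all genes were. In CDK16-sh1 SESN1 was lower, and 0 passed 2-fold in CDK16-sh2 or at 1 μM.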
